A study of Mus musculus with 12 samples.

Results

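The genes that encode the proteins of the cytosolic ribosome were followed in mouse bone marrow-derived macrophages with and without miR-210, before and after polarization with IL-4. The members were taken by symbol from the 56941 genes of the count tables: protein-coding genes whose symbol begins with Rpl or Rps and a number, together with Rplp0, Rplp1, Rplp2 and Rpsa, without the S6 kinases and without pseudogenes. Of 90 such genes, 84 had a mean of at least 10 counts over the 12 libraries and were analysed, 45 of the large subunit, 34 of the small subunit, 3 of the stalk of the large subunit, and Rps19bp1 and Rpl7l1, whose symbols match although their proteins are not parts of the mature ribosome. The 6 genes under the minimum were Rpl10l, Rpl27rt, Rpl36al, Rpl39l, Rpl3l and Rps23rg1. No measured change was used to choose a member.

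Monocytes were isolated from the bone marrow of C57BL/6J mice, WT or miR-210 KO (offspring of heterozygotes derived from a floxed line and a Gata-1 Cre line), and became macrophages over 7 days in DMEM to which serum (20%) and medium of L929 cells (30%), a fibroblast line that secretes M-CSF, were added. Such cells are called M0, and those then exposed to IL-4 (20 ng/mL) during 72 hours are called M2, while M0 cultures had no IL-4 in that time. With both genotypes in both states there were 4 groups of 3 libraries. Ages are not given in the sources used here. Nothing in the labels says that the 3 libraries of a group came from separate animals, so that p-values measure the spread between these libraries, which may be technical in part. Each group forms 1 batch in the labels, and batch and group cannot be told apart.

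Every ribosome holds a single copy of nearly all of these proteins, and the genes lie scattered over the genome, here on 19 chromosomes, so that their products must be made in balanced amounts. The mRNAs of most of them begin with a C followed by a run of pyrimidines, the terminal oligopyrimidine (TOP) motif, through which mTORC1 and LARP1 set how much of each mRNA is translated. A level of mRNA is therefore not a measure of protein synthesis. IL-4 acts on macrophages through STAT6 and induces Arg1, Retnla, Chil3 and Mrc1.

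The starts of 8 of the genes are shown because they carry the motif by which this family is known, or belong to genes described below. They were chosen after the data were seen. The sequences are 30 bases from RefSeq (GRCm38.p6), 10 before and 20 from the annotated start, with the C or T run that begins at the first transcribed base in capitals. Rps6, the substrate of the S6 kinases, and Rpl15 have long runs, and the stalk gene Rplp2 and the small-subunit gene Rps10 have runs of 5 and 10 bases. Rps27rt, a retrotransposed copy of Rps27, starts with the same run as Rps27 without its first base. Rpl12 and Rps7 have no run of at least 5 C or T at the annotated first base, which can lie some bases from the start used in these cells.
Rps6 (chr4:86857348-86857377, minus strand): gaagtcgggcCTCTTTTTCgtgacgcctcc
Rpl15 (chr14:18270967-18270996, minus strand): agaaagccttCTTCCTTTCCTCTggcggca
Rplp2 (chr7:141447641-141447670, plus strand): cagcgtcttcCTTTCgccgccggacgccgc
Rps10 (chr17:27635225-27635254, minus strand): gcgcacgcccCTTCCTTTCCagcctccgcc
Rps27 (chr3:90213629-90213658, minus strand): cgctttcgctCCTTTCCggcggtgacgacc
Rps27rt (chr9:114982720-114982749, minus strand): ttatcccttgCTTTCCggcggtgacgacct
Rpl12 (chr2:32961702-32961731, plus strand): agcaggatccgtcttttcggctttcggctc
Rps7 (chr12:28635934-28635963, minus strand): cggtttccacccacctacttccgctgtccc

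A RefSeq start outside chromosome 18 was found for 62 of the 84 members. A first base C within a run of at least 5 C or T was present in 14 of the 62 (22.6%) and in 813 of 27025 genes (3.01%). A run of at least 8 C or T within 10 bases on either side of the start was present in 29 of the 62 (46.8%) and in 15.8% of all genes, and both features were chosen after the data were seen. The members with the run at the first base changed with IL-4 in WT by a median of 0.33 on the log2 scale (n = 14, from 0.11 to 0.85), and those without it by 0.30 (n = 48, from -0.17 to 1.01).

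The libraries held between 7930525 and 10167695 counts, of which 82231 to 124824 fell on the 84 members. Mir210 had 0 counts in the 6 miR-210 KO libraries and 1 to 5 in the 6 WT libraries. The macrophage gene Adgre1 had 6911 to 10812 counts in each library, and Retnla had 0 in every M0 library and 2161 to 4493 in the M2 libraries. Lists of markers of other cells stayed low: the summed level lay between 0.608 and 4.73 CPM (counts scaled to library size with TMM factors) for neutrophils, with Ly6g at 0, between 5.93 and 10.21 for B cells, with Ms4a1 at 0, between 1.25 and 5.33 for T and NK cells, with Cd3e and Nkg7 at 0, from 0 to 4.42 for erythroid cells, and between 0.122 and 2.29 for fibroblasts. At most 0.210 CPM fell on the mast cell and basophil list, whose Fcer1a was at 0. The dendritic cell list, carried by Zbtb46, lay between 0.309 and 0.950 CPM in M0 and between 10.1 and 18.0 CPM in M2. The part of these markers in the results was not tested.

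The summed share of the 84 genes was higher in M2 than in M0. In the M0 state their counts took 1.04%, 0.960% and 1.04% of the library totals of WT, and 1.19%, 0.992% and 1.09% of those of miR-210 KO. In the M2 state they took 1.24%, 1.22% and 1.21% in WT, and 1.25%, 1.29% and 1.19% in miR-210 KO. In the same order the means were 1.01% ± 0.0459, 1.09% ± 0.0996, 1.22% ± 0.0181 and 1.24% ± 0.0511 (SD, n = 3 each). The 2 WT groups did not overlap, and the highest miR-210 KO M0 library lay just above the lowest miR-210 KO M2 library. The shares of the large subunit and the small subunit had the same order, from 0.508% and 0.394% in WT M0 to 0.621% and 0.478% in miR-210 KO M2. In bulk RNA, a different share of cells of a type and a different amount of RNA per cell cannot be told apart.

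**Figure D1:**
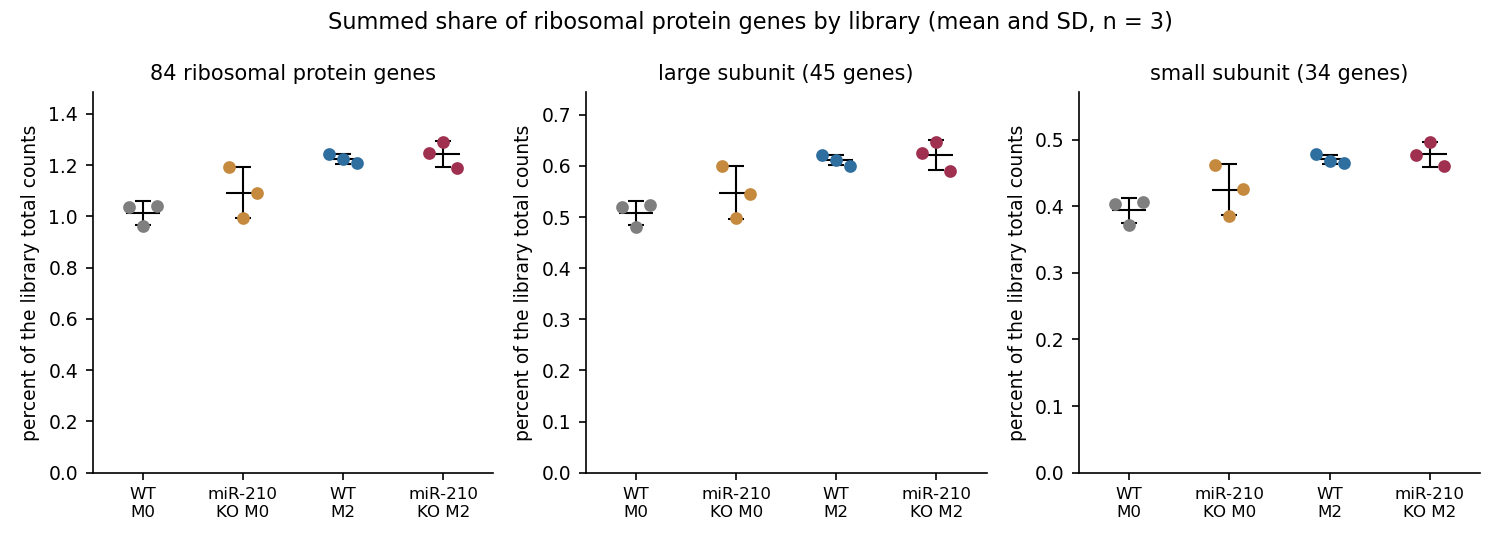
Summed counts of the ribosomal protein genes as a percent of the library total, for all 84 genes and for the large and small subunits; points are libraries, the horizontal line and bar are the mean and SD of 3 libraries. The WT M2 libraries (1.21% to 1.24%) all lie above the WT M0 libraries (0.960% to 1.04%), while the miR-210 KO M0 libraries spread from 0.992% to 1.19%.

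The libraries numbered 2 were the lowest of both M0 groups. The summed level of 5 cycling genes, among them Mki67 and Top2a, was 96.0, 150 and 75.4 CPM in the WT M0 libraries and 176, 181.5 and 116 CPM in the miR-210 KO M0 libraries, so that library 2 was the highest of its group in both. In M2 it lay between 181.6 and 187 CPM in WT and between 198 and 231 CPM in miR-210 KO. The part of cell cycling in the results was not tested.

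**Figure D2:**
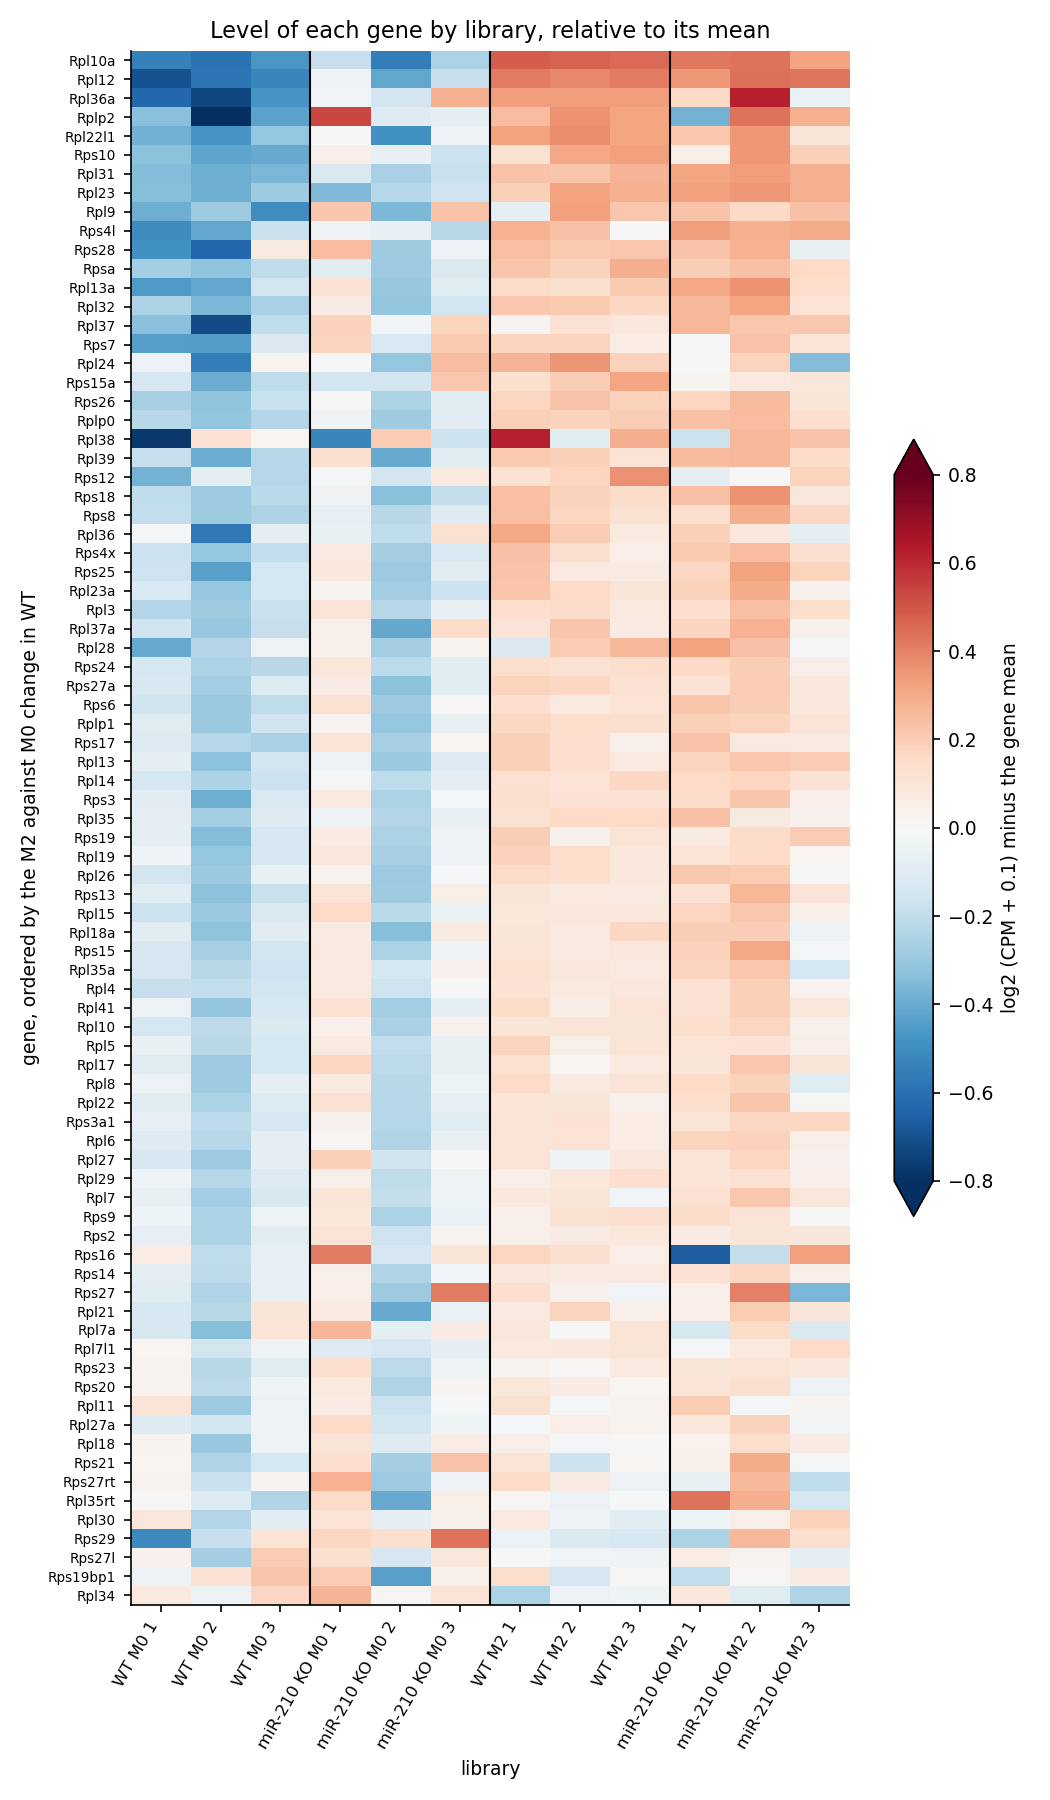
Level of the ribosomal protein genes (a few are not shown) in each of the 12 libraries as log2 (CPM + 0.1) minus the mean of the gene, with genes ordered by the M2 against M0 change in WT and vertical lines between groups. WT M0 is blue for most genes and both M2 groups are red, with Rpl10a, Rpl12, Rpl36a and Rplp2 at the top, and library 2 is the bluest of each M0 group for most genes.

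In WT macrophages, the mRNA of most ribosomal protein genes rose with IL-4, by up to about 1 on the log2 scale. With edgeR's quasi-likelihood test and Benjamini-Hochberg (BH) adjustment over 14266 genes, where a call needs an adjusted p below 0.05 with a change of more than 1.2-fold, 49 of the 84 members (58.3%) were called higher and 0 lower, beside 22.1% and 20.9% of all genes tested. The median log2 fold change of the members was 0.30 (quartiles 0.21 and 0.45) and that of all genes -0.0012. It was 0.30 for the large subunit (25 of 45 called), 0.32 for the small subunit (21 of 34) and 0.45 for the stalk (3 of 3). A further 13 members passed the adjusted p with an increase that was too small to be called. In 66 members every M2 library lay above every M0 library, which was so for 28.3% of all genes, and in 0 members was it the reverse. The libraries are shared by all members, so that these counts do not come from separate observations.

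Rpl10a, a protein of the L1 stalk where spent tRNAs leave, showed the largest increase. Its level was 125, 120 and 131 CPM in WT M0 and 254, 251 and 249 CPM in WT M2, and the log2 fold change was 1.01 with a standard error of 0.06 (adjusted p = 1.7e-08, edgeR with BH adjustment). The level of the gene (chromosome 17, 28547144 to 28550008, GRCm39) was thus 2.01-fold higher, and the groups were far apart. Rpl12 (chromosome 2, 32851496 to 32855357), which sits at the base of the stalk that recruits translation factors, changed by the same amount. It had 16.8, 18.2 and 18.9 CPM in WT M0 and 36.3, 35.5 and 36.3 CPM in WT M2 (log2 fold change 1.01, standard error 0.09, adjusted p = 5.7e-07). The M2 values of Rpl12 were close together and far above those of M0.

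Rpl36a (chromosome X, 133486372 to 133488901) followed with 5.08, 4.74 and 5.67 CPM in M0 and 10.0, 9.99 and 10.0 CPM in M2 (log2 fold change 0.96, standard error 0.15, adjusted p = 1.5e-04). Of the 50-base stretches of the Rpl36a transcript, 85.6% are not unique to this gene. The share was 59.5% for Rpl10a, 46.1% for Rpl12, 59.7% for Rpl22l1, 32.6% for Rpl23 and 9.01% for Rpl31. Within the coding sequence, no stretch of Rpl10a, Rpl12, Rpl31 or Rpl36a was unique, so that the counts of these genes are uncertain too. Rpl22l1, a paralog of Rpl22 that can take its place in the ribosome, rose from 16.9, 15.9 and 17.8 CPM to 27.6, 28.6 and 27.5 CPM (log2 fold change 0.73, standard error 0.09, adjusted p = 2.0e-05). Rpl23 and Rpl31, the latter at the exit of the peptide tunnel, rose by 0.61 and 0.62 on the log2 scale. These 6 genes kept their calls in WT in each fit that left out a library, and of the 49 members called, 34 did.

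The stalk, formed by Rplp0 with Rplp1 and Rplp2, is where elongation factors engage the ribosome. Rplp2 (chromosome 7, 141027274 to 141034167) had 18.3, 12.8 and 17.1 CPM in WT M0 and 27.4, 29.7 and 28.8 CPM in WT M2 (log2 fold change 0.85, standard error 0.12, adjusted p = 6.1e-05). Rplp0 rose from 578, 541 and 572 CPM to 768, 762 and 774 CPM (log2 fold change 0.45, adjusted p = 3.5e-05), and Rplp1 from 443, 385 and 423 CPM to 530, 521 and 516 CPM (log2 fold change 0.33, adjusted p = 0.0010). All 3 stalk genes were thus separated between the groups, and Rplp2 changed the most.

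In the small subunit, Rps10, which lies near the entry of the mRNA, rose by 0.65 on the log2 scale in WT (adjusted p = 0.0015), Rpsa, also known as the laminin receptor precursor, by 0.50 (adjusted p = 1.8e-05) and Rps6 by 0.33 (adjusted p = 6.7e-04). Rps6 had 125, 114 and 122 CPM in WT M0 and 154, 147 and 151 CPM in WT M2. Rps4l, an autosomal copy of Rps4x, rose by 0.54 (adjusted p = 0.013), a call that was lost without library 1 of WT M2 (0.49), and Rps4x by 0.37. Rps28 was called (0.54, adjusted p = 0.036) with only 4.02 to 6.58 CPM in M0, and its call was lost without either of the libraries 1 and 2 of WT M0 (0.47 and 0.39) or any library of WT M2 (0.53 to 0.55). Rpl41, which encodes the shortest of these proteins, was called with a log2 fold change of 0.27 and lost its call without library 2 of WT M0 (0.20) or library 1 of WT M2 (0.25).

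Rpl32 had served the study as reference gene in RT-PCR. Its level was 120, 110 and 118 CPM in WT M0 cells and 165, 164 and 159 CPM after IL-4. In miR-210 KO it was 148, 114 and 128 CPM in M0 and 170, 176 and 153 CPM after IL-4. With IL-4 it rose by 0.49 on the log2 scale in WT (standard error 0.06, adjusted p = 2.0e-05) and by 0.36 in miR-210 KO (standard error 0.10, adjusted p = 0.014), and in both the M2 libraries lay above all M0 libraries. The call in miR-210 KO was lost without library 3 of miR-210 KO M0 (0.33) or without library 1 or 2 of miR-210 KO M2 (0.34 and 0.30). Between the genotypes Rpl32 differed by 0.16 in M0 (standard error 0.10, adjusted p = 0.66), which did not pass the test.

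A few members varied little over the 12 libraries. Rpl7l1 and Rpl27a had narrow spreads (SDs of 0.10 and 0.11 of log2 CPM), with changes of 0.15 (standard error 0.06, adjusted p = 0.076) and 0.13 (standard error 0.07, adjusted p = 0.14) in WT that did not pass the test. Every WT M2 library nevertheless lay above every WT M0 library for both genes, and for Rpl7l1 this was so in miR-210 KO too. Rps27l, a p53-inducible paralog of Rps27, had a log2 fold change of -0.01 in WT (standard error 0.10), with 39.5 to 54.9 CPM in M0 and 46.6 to 47.8 CPM in M2. The SDs of Rpl10a, Rpl12 and Rplp2 were the widest, at 0.47, 0.46 and 0.43. Rps19bp1, a nucleolar partner of Rps19, changed by -0.10 in WT (standard error 0.15), and it and Rpl7l1 were called in none of the 4 comparisons.

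In miR-210 KO macrophages the same direction was found with smaller values. Of the 84 members, 20 (23.8%) were called higher and 0 lower over 14331 genes tested, beside 17.4% and 16.4% of all genes. The median log2 fold change was 0.18 (quartiles 0.10 and 0.27) for the members and -0.0078 for all genes. In 32 members (38.1%) the M2 libraries all lay above the M0 libraries, against 23.6% of all genes. The log2 fold change was above 0 for 77 of the 84 members and for 7047 of the 14331 genes. The share of members called higher is thus not far from the background in this genotype, unlike the share called lower. It moved with single libraries: 33 were called without library 1 of miR-210 KO M0, 9 without library 2 and 10 without library 3 of that group, 10 without library 1 and 8 without library 2 of miR-210 KO M2. The medians without each library ranged from 0.09 to 0.26. Of the 20 calls, 7 were kept in each fit that left out a library.

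All 20 members called in miR-210 KO were also called in WT, where they made up 40.8% of the 49 calls. The 29 members called in WT alone all had a log2 fold change above 0 in miR-210 KO. Across the 84 genes the changes in the genotypes, which share no library, had a Pearson r of 0.64 and a Spearman rho of 0.61, given as a description since the genes are not independent. The change was larger in WT than in miR-210 KO for 77 of the 84.

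**Figure D3:**
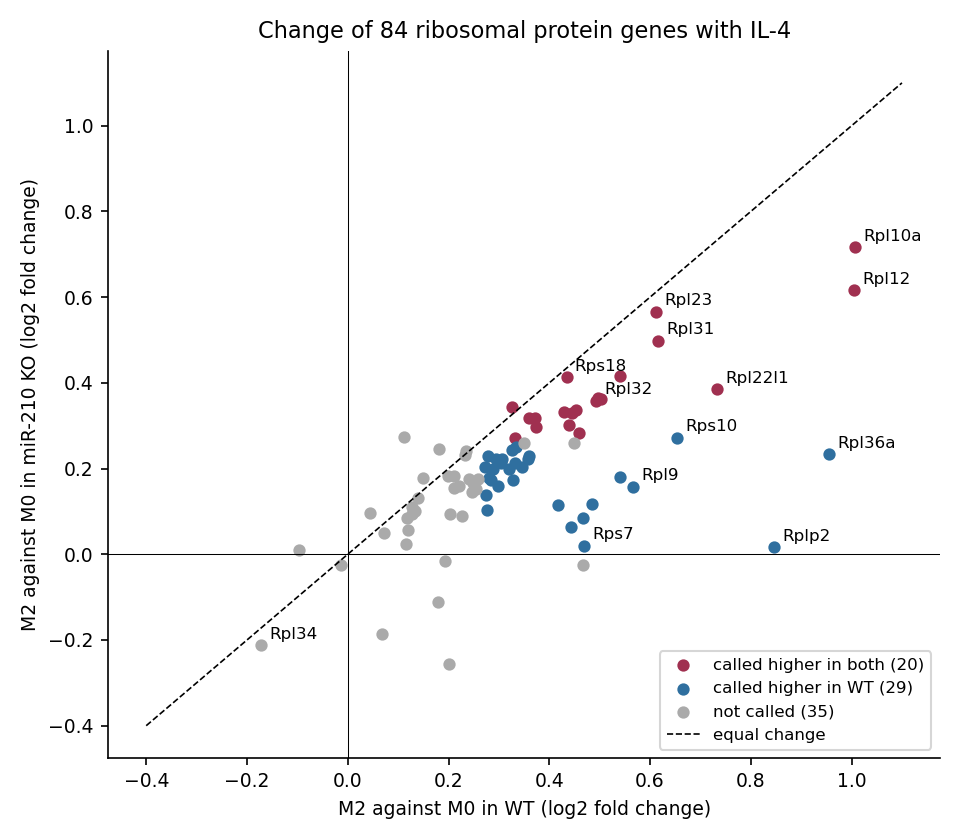
M2 against M0 change of each of the 84 genes in WT (horizontal, log2 fold change) and in miR-210 KO (vertical), colored by whether the gene was called in both genotypes (20), in WT (29) or in neither (35); the dashed line marks equal change. Most points lie below the line, Rpl10a and Rpl12 are the highest in both, and Rplp2 reaches 0.85 in WT and 0.02 in miR-210 KO.

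The largest increases in miR-210 KO were again those of Rpl10a and Rpl12. Rpl10a had 160, 123 and 152 CPM in miR-210 KO M0 and 242, 245 and 227 CPM in miR-210 KO M2 (log2 fold change 0.72, standard error 0.10, adjusted p = 7.4e-05). Rpl12 had 26.6, 20.4 and 23.96 CPM and 34.6, 37.1 and 36.7 CPM (log2 fold change 0.62, standard error 0.11, adjusted p = 6.4e-04). The miR-210 KO M0 values of both genes spread more widely than those of WT M0, while in M2 the genotypes overlapped for Rpl12 and Rpl10a lay just below WT in miR-210 KO (log2 fold change -0.07, standard error 0.05, adjusted p = 0.71). Rpl23 rose by 0.57, Rpl31 by 0.50 and Rpsa by 0.36, and these 5 genes kept their calls without any single library.

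Other calls in miR-210 KO rested on single libraries. Rplp0 rose from 660, 554 and 632 CPM to 791, 798 and 741 CPM (log2 fold change 0.34, adjusted p = 0.0060), and without library 2 of miR-210 KO M0 its fold change of 0.26 was just under the limit. Rpl22l1 (0.38), Rplp1 (0.27) and Rps4x (0.30) lost their calls without library 2 or 3 of miR-210 KO M0 or library 1 or 2 of miR-210 KO M2, with values from 0.23 to 0.47, 0.17 to 0.34 and 0.21 to 0.39 over the libraries left out. Rps4l (0.42, adjusted p = 0.047) lost its call without any of the 6 libraries, with values from 0.34 to 0.44. Rplp2 was not called in miR-210 KO: its M0 values of 33.6, 21.5 and 22.0 CPM and M2 values of 17.7, 31.3 and 28.1 CPM overlapped (log2 fold change 0.02, standard error 0.21).

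Between miR-210 KO and WT in the M0 state, the question the study asked of resting cells, 0 members were called in either direction over 14089 genes, where 0.22% of all genes were called higher and 0.241% lower. The lowest adjusted p of a member was 0.185. The DESeq2 Wald test called 1, Rplp2. An unadjusted p under 0.05 was found in 6 members (7.14%), below the 10.01% of all genes. The log2 fold change was above 0 for 81 of the 84 and for 7059 of all 14089 genes, with medians of 0.12 and 0.00050. In 7 members (8.33%) every miR-210 KO library lay above every WT library and in 0 below, against 7.13% and 7.3% of all genes, so that the members' share that did not overlap was near the background.

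The lowest p-values in M0 were those of Rplp2, Rpl37 and Rpl36a. Rplp2 had 18.3, 12.8 and 17.1 CPM in WT M0 and 33.6, 21.5 and 22.0 CPM in miR-210 KO M0 (log2 fold change 0.68, standard error 0.19, adjusted p = 0.19), and library 1 of miR-210 KO stood above the other libraries of its group. Without that library the log2 fold change was 0.44. Rpl36a had 5.08, 4.74 and 5.67 CPM in WT M0 and 7.78, 7.12 and 9.64 CPM in miR-210 KO M0 (0.66, standard error 0.19, adjusted p = 0.22), with groups that did not overlap. Rpl37 differed by 0.52 and Rps7 by 0.42, with adjusted p of 0.19 and 0.25 (edgeR with BH adjustment). The median of all members lay between 0.06 without library 1 of miR-210 KO M0 and 0.21 without library 2 of that group.

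In the M2 state the values lay nearer to 0, a contrast between the states that is given by the interaction below. Over 13980 genes, 0 members were called, against 0.408% of all genes higher and 0.572% lower, and 0 had an unadjusted p under 0.05 in edgeR, where the lowest adjusted p was 0.54. The DESeq2 Wald test also called 0. The median log2 fold change was 0.03 for the members and 0.0020 for all genes. In 5 members the miR-210 KO libraries lay above and in 3 below the WT libraries without overlap, against 7.52% and 8.52% of all genes. The levels of Rplp1 were 530, 521 and 516 CPM in WT M2 and 540, 535 and 510 CPM in miR-210 KO M2, and those of Rps2 were 682, 691 and 699 CPM and 690, 705 and 701 CPM.

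Whether the response to IL-4 differed between the genotypes was tested as an interaction in all 12 libraries. Of 14825 genes tested, 0 were called (0%) at an adjusted p under 0.05, and of the 84 members 8 (9.52%) had an unadjusted p under 0.05, near the 8.95% of all genes. The difference was below 0, a smaller response in miR-210 KO, for 76 of the 84, with a median of -0.10 and a median of -0.0016 over all genes. DESeq2 called 0 members. Rplp2 had the lowest p, with a difference of -0.82 (standard error 0.28, adjusted p = 0.33, edgeR with BH adjustment). Next came Rpl36a with -0.72 (standard error 0.25, adjusted p = 0.36) and Rpl12 with -0.38 (standard error 0.14, adjusted p = 0.37), and Rpl10a had -0.28 (standard error 0.12, adjusted p = 0.46). A smaller response was thus not shown for any member under BH adjustment. Rps7, a small-subunit protein, had 19.2, 19.1 and 24.01 CPM in WT M0 cells and 29.4, 29.4 and 27.2 CPM after IL-4. In miR-210 KO it had 29.4, 23.9 and 30.1 CPM in M0 and 25.9, 30.5 and 28.0 CPM after IL-4, so that WT M0 was the low group.

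**Figure D4:**
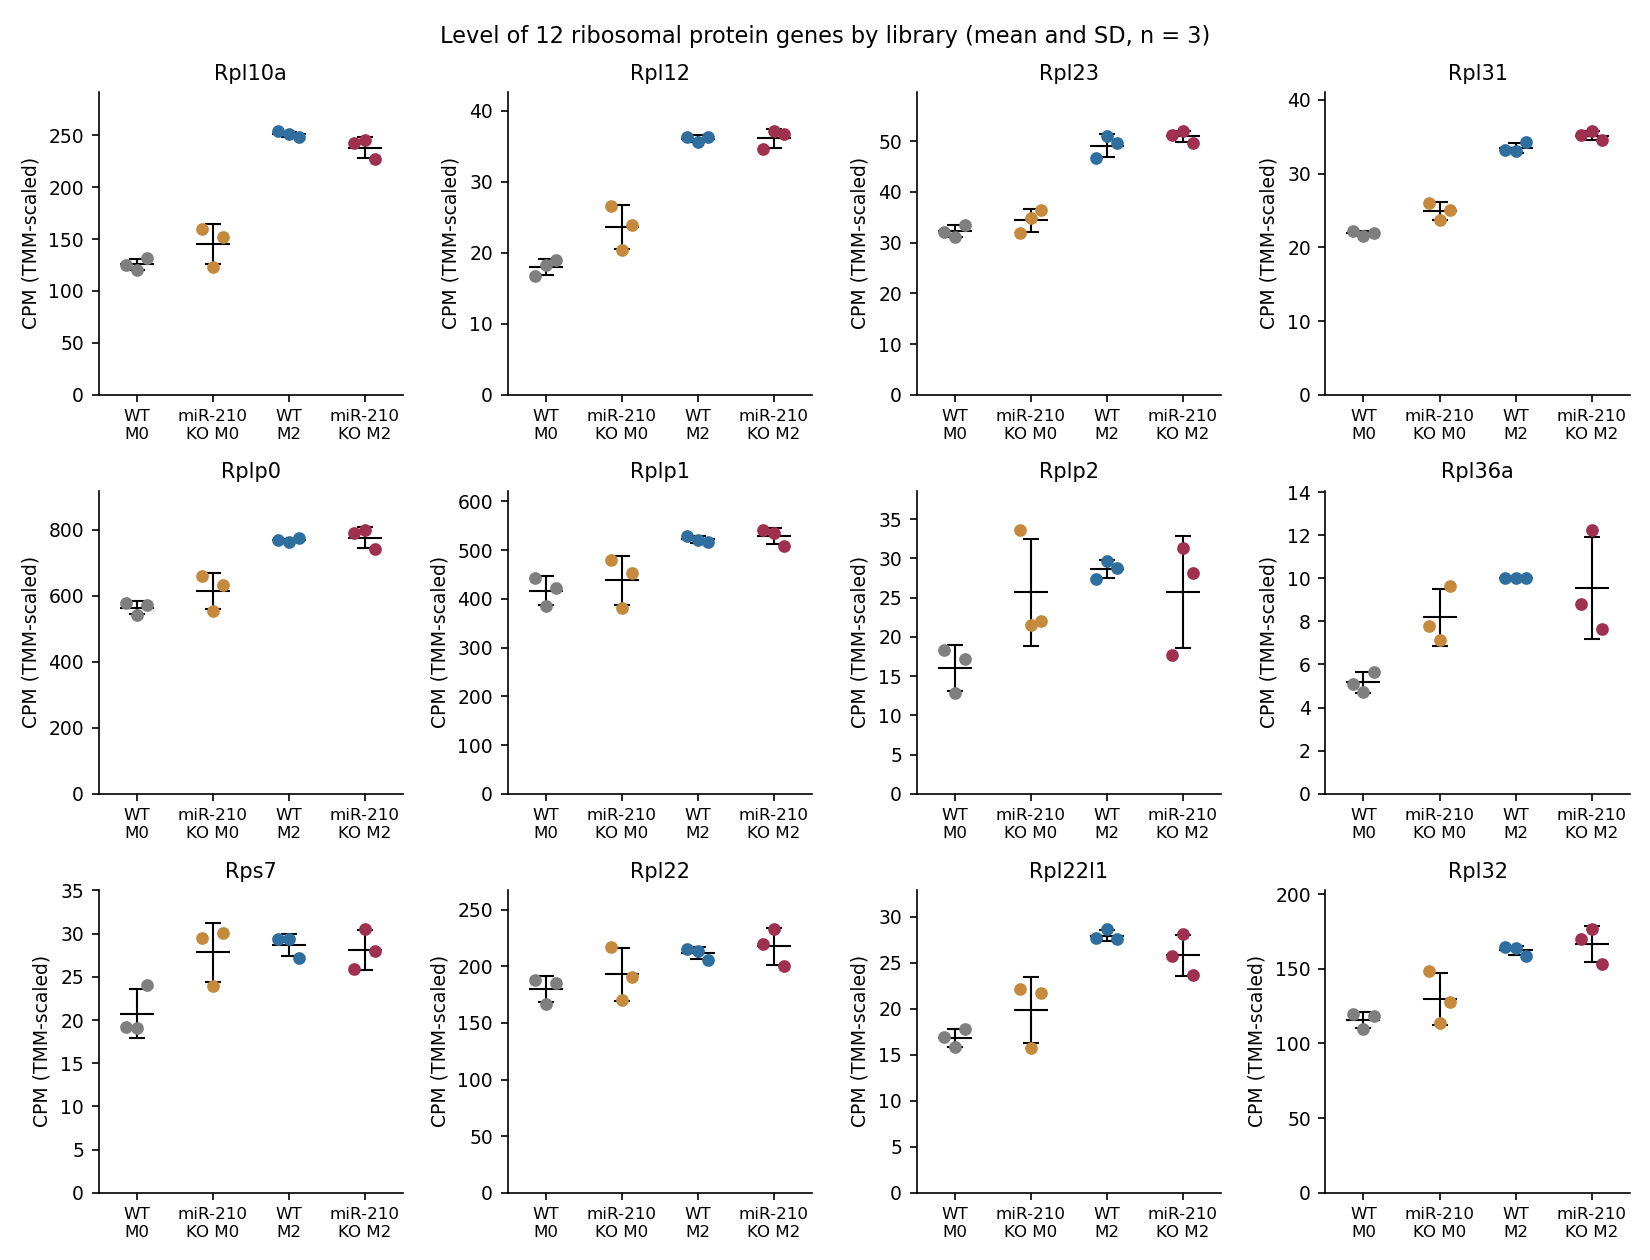
Level of 12 genes in each library (CPM scaled by TMM, vertical axes from 0); points are libraries, the line and bar are the mean and SD of 3. Rpl10a, Rpl12, Rpl23, Rpl31, Rplp0, Rplp1, Rpl32 and Rpl22l1 are separated between M0 and M2 in both genotypes, and Rplp2, Rpl36a, Rps7 and Rpl22 in WT.

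Several members have a close paralog, and the share of each pair's counts is given below. In WT, Rpl22l1 made up 8.26%, 8.67% and 8.79% of the counts of Rpl22 and Rpl22l1 before IL-4, and 11.4%, 11.8% and 11.8% after it. In miR-210 KO it made up 9.24%, 8.46% and 10.19% in M0 and 10.5%, 10.8% and 10.5% in M2. The share, not corrected for length, was higher in each M2 library than in each M0 library of the same genotype. Rpl22 itself changed by 0.24 in WT (standard error 0.06, adjusted p = 0.0079), under the fold limit. Rps27l made up 83.1% to 85.8% of the counts of Rps27 and Rps27l in WT M0 and 82.0% to 83.2% in WT M2, and Rps4l 2.54% to 3.23% and 3.08% to 3.42% of those of Rps4x and Rps4l. Both ranges overlapped. Rps27rt held 37.6% to 38.6% of the counts of Rps27 and Rps27rt in WT M0, but 91.1% of its stretches also occur elsewhere, so that the counts of these genes are uncertain. Rpl7l1 made up 28.3% to 29.1% of the counts of Rpl7 and Rpl7l1 in WT M0 and 27.1% to 29.1% in WT M2.

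Levels per length differed widely among these genes, although nearly all of their proteins are present as a single copy in each ribosome. Per kilobase of the union of exons, Rplp1 was the highest with 811 CPM, followed by Rpl41 with 455 and Rps2 with 359, and Rps28, Rpl38 and Rpl37 were the lowest with 1.06, 2.25 and 2.34 CPM. The highest exceeded the lowest 766 times. Per kilobase of coding sequence, an alternative chosen after seeing the data, the ratio was 580, and 6 of the 10 highest genes were among the 10 highest under both lengths. These ratios compare different genes: per kilobase of coding sequence Rpl41 was the highest and Rplp1 the next, and Rpl24 was the lowest, so that the order depends on the length used at both ends.

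Many members share stretches of sequence with other genes, most of all in the coding part. Every 50-base stretch of the reference transcript of each member was searched in the transcripts of all other genes. A median of 36.8% of the stretches also occurred elsewhere, 89.5% within the coding sequence, and 28 members had no unique stretch in their coding sequence, while every member had unique stretches in its whole transcript. Rps19bp1 shared no stretch with another gene, and Rpl9 and Rps27rt shared 91.1%. The level per kilobase of coding sequence had a Spearman rho of -0.23 with the share of coding stretches found elsewhere, a description over 84 genes that share all libraries.

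The members with at most 20% shared stretches are considered apart. These 21 genes had a median change with IL-4 of 0.35 in WT (12 called higher) and 0.18 in miR-210 KO (6 called higher), and the other 63 had 0.30 (37 called) and 0.18 (14 called).

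**Figure D5:**
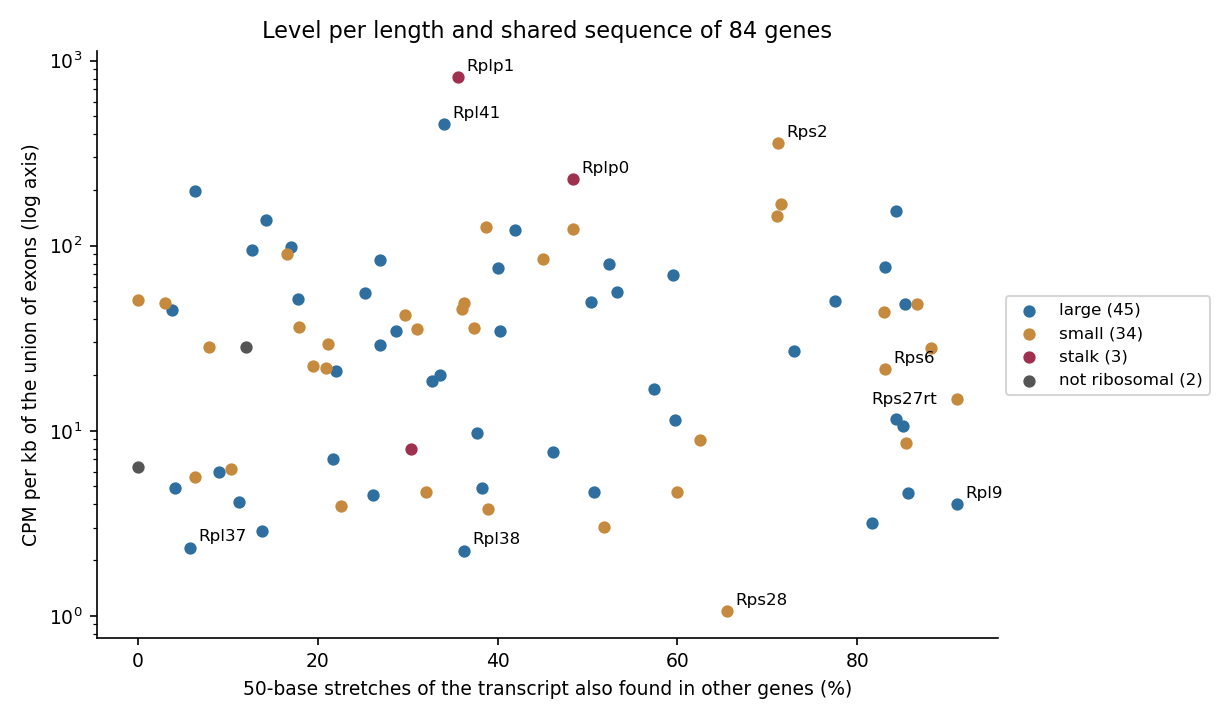
Mean level of each gene per kilobase of the union of exons (vertical, log axis, CPM per kb) against the share of its 50-base transcript stretches found in another gene too (horizontal, percent), by subunit. Levels span from 1.06 (Rps28) to 811 (Rplp1) and are not ordered by the share of common sequence.

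Genes around the ribosome were taken from lists, whose counts stand beside the 22.1% of all genes called higher and 20.9% called lower in WT, and the 17.4% and 16.4% in miR-210 KO. Of the ribosome components outside the symbol rule, Rack1, a scaffold on the small subunit, rose with IL-4 in WT by 0.28 (adjusted p = 0.0034, edgeR with BH adjustment), while Fau, a fusion that yields a small-subunit protein, changed by 0.14 (adjusted p = 0.15), and neither was called in miR-210 KO. Of 67 genes of rRNA synthesis and ribosome assembly, 25 were called higher (37.3%) and 2 lower (2.99%) in WT. In miR-210 KO 10 were called higher (14.9%), a share under that of all genes, and 2 lower, and the medians were 0.18 and 0.05. Among them Taf1d, a subunit of the RNA polymerase I factor SL1, rose by 1.28 in WT and 0.93 in miR-210 KO, Nop16, a nucleolar protein, by 0.96 and 0.79, and Polr1a, the largest subunit of RNA polymerase I, by 0.73 in WT (adjusted p = 1.1e-05). Riok2, a kinase of late small-subunit maturation, fell by 0.52 in miR-210 KO (adjusted p = 0.0012).

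Of 19 other genes with TOP mRNAs, mostly translation factors, 6 were called higher (31.6%) and 2 lower in WT, and 3 (15.8%) and 0 in miR-210 KO. Vim, which encodes the intermediate filament vimentin, rose by 0.64 and 0.63, and Eif3l, a subunit of eIF3, by 0.50 and 0.36. Of 32 other initiation and elongation factors, 8 were called higher (25.0%) and 3 lower in WT, and 3 (9.38%) and 4 in miR-210 KO, near and under the shares of all genes called higher. Eif5a rose by 0.81 and 0.62 and Eif4a1, the helicase of cap-dependent initiation, by 0.71 and 0.47, while Eif4e, the cap-binding protein, fell by 0.29 in miR-210 KO (adjusted p = 0.011).

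The list of mTORC1 and the control of TOP mRNA translation, which also holds the Myc network, went both ways, with 5 called higher (11.6%) and 8 lower (18.6%) of 43 in WT and 7 (16.3%) and 9 (20.9%) of 43 in miR-210 KO. Myc, a transcription factor that drives ribosome production, rose from 2.67, 4.54 and 4.46 CPM in WT M0 to 33.1, 24.4 and 28.0 CPM in WT M2 (log2 fold change 2.85, adjusted p = 2.3e-08) and by 1.88 in miR-210 KO. Mxd4, a member of its repressive partner family, rose by 1.75 and 1.88, and Rragc, a GTPase of amino acid sensing, fell by 0.93 in WT. Of 15 genes of ribosome quality control and ribosome stress, 3 were called higher (20.0%) and 1 lower in WT and 1 (6.67%) and 0 in miR-210 KO. Between the genotypes 0 genes of these lists were called in M0, and 1 in M2, Trib3, an inhibitor of AKT, which fell by 0.67 in miR-210 KO (adjusted p = 0.020).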

How the data were processed

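RNA of 12 samples, 3 in each group, was sequenced as stranded, rRNA-depleted, paired-end libraries. The authors trimmed reads (Trimmomatic), removed duplicates (Picard), aligned to GRCm39 (STAR), counted per gene and strand (featureCounts), and deposited raw counts in 4 tables, 1 for each comparison. Every library stood in 2 of them with identical values. Removing duplicates can limit the counts of short, abundant genes, and how reads matching several genes were counted is not given in the sources used here. The normalized tables were not used.

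Symbols and lengths came from GENCODE M39 (GRCm39), which matched 56323 of 56941 identifiers. Pairs of groups were tested with edgeR 4.0.16 (TMM, filterByExpr, quasi-likelihood test, BH adjustment) in R 4.3.3, and the interaction was fitted to all 12 libraries and called on the adjusted p alone. Both were checked on simulated data with 200 genes changed by 1 on the log2 scale. The changed genes were drawn at random from all but the lowest genes, with the same spread between libraries set for every gene. The pair tests recovered 85.5% to 90.5% of these genes and the interaction test only 52%, so that it can miss changes of this size. Smaller differences, such as the members' median of -0.10 in the interaction, were not simulated. Shared stretches were counted in GENCODE transcripts, and start windows came from RefSeq (GRCm38.p6). CPM were scaled by TMM over 12 libraries, with 0.1 added before logs. Within groups, chi-square per degree of freedom between libraries was 1.89 to 9.85 over all genes, above counting noise. Over the 84 members, scaled to their own summed counts, it was 0.886 to 2.43, and in WT M2 0.886 to 1.38. That scaling removes shifts of the whole family between libraries, such as the summed shares of 0.992% to 1.19% in miR-210 KO M0. The values near counting noise therefore hold only for the members relative to each other. No library was counted as a repeat.

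Members, lists and tests were chosen with earlier results of these data known. Named members are the stalk genes, Rpsa, Rpl32, Rps6, paralog pairs, the 5 largest calls per direction and comparison without overlap, the 3 highest and lowest per length, the 3 widest and narrowest spreads, and members that are not ribosomal; of lists, up to 3 genes with the smallest p per comparison. Rps7, Rps10, Rpl9 and Rpl15 were named after their values were seen. A few genes that these rules name are not reported here. Alternatives were the DESeq2 1.42.0 Wald test, other normalizations and filters, no fold limit, all 12 libraries in a fit, and each library left out.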

Additional observations from a re-analysis of the deposited data

How the results depend on the processing

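The calls with IL-4 in WT (49) kept within 1.5 times under every alternative, from 35 without library 2 of WT M0 to 62 without a fold limit, and 0 members were called lower in any fit of the 4 comparisons. In miR-210 KO the 20 calls ranged from 8 to 33 over the libraries left out and from 14 (library size only) to 23 (no fold limit) otherwise. Between the genotypes in M0, 0 members became 1 with the DESeq2 Wald test (Rplp2), 4 without a filter (Rplp2, Rpl37, Rpl9, Rps7) and 1 in a fit of all 12 libraries (Rpl37), and lay between 0 and 1 over the libraries left out. The interaction called 1 member, Rplp2, without a filter. The cause was not tested. Medians kept their sign, except in M2 between the genotypes, where the median fell just below 0 without library 2 of miR-210 KO M2. Without the members that share over 20% of their stretches the summed shares were 0.280% in WT M0, 0.299% in miR-210 KO M0, 0.331% in WT M2 and 0.333% in miR-210 KO M2, by construction smaller. In WT M2 the share was 1.20% without paralogs and non-ribosomal members and 1.27% of protein-coding counts. The ratio of the highest to the lowest level per length was 580 with coding length. No paired analysis was possible because the library numbers of the tables are not tied to the sample labels. Members under about 10 CPM, such as Rpl38 and Rps28, have wide errors at this depth.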

Other observations

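Mitochondrial ribosomal protein genes, a list added after the data were seen, were looked at beside the cytosolic ones. Of 78 tested, 14 were called higher (17.9%) and 4 lower with IL-4 in WT, where 22.1% of all genes were called higher, and the median log2 fold change was 0.05. In miR-210 KO 7 were called higher (8.97%) and 4 lower, where 17.4% of all genes were called higher, with a median of -0.0098, and the difference between both families was not tested. Mrps25 rose by 0.65 in WT and 0.64 in miR-210 KO and Mrps6 by 1.24 and 1.26 (edgeR with BH adjustment).

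The 313 genes with a matching symbol that were left out as pseudogenes or not protein coding held between 0.0120% and 0.0160% of the library totals. Pseudogenes under other symbols are not in this sum. An example is Gm12918, with which Rpl13 shares 77.5% of its stretches. Of 306 genes named as a pseudogene of a member, 24 had a mean of at least 10 counts, and 1, Rpl38-ps2, had more counts than its parent gene. In WT it had 78, 92 and 87 counts before and 107, 125 and 94 after IL-4, and in miR-210 KO 137, 98 and 107 before and 100, 124 and 91 after it, with a mean of 103 against 16.9 for Rpl38. All coding stretches of Rpl38 also occur in other genes, and 36.2% of the stretches of its transcript occur in Rpl38-ps2, so that the counts of both are uncertain.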
